A study of Mus musculus with 9 samples.

Results

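The CDK inhibitors, the retinoblastoma gene and the D-type cyclins that carry the G1 control of T cells were followed through RNA-seq of the murine cell line T15. The group was set by name, with earlier results of these data known, as 10 genes of the 35288 in the count table. It held the CIP/KIP inhibitors Cdkn1a, Cdkn1b and Cdkn1c and the INK4 inhibitors Cdkn2a, Cdkn2b, Cdkn2c and Cdkn2d. The others were the pocket protein gene Rb1 and the D cyclin genes Ccnd2 and Ccnd3. All 10 passed the filter on low counts, which left 13697 genes. T15 is a Smarcb1-negative peripheral T-cell lymphoma (PTCL) line, and Smarcb1 encodes a core subunit of the SWI/SNF chromatin remodelling complex. Libraries of 3 control cultures, 3 cultures that received 1 µM SAHA (vorinostat, an inhibitor of histone deacetylases) with 2 applications over 72 h, and 3 cultures with Smarcb1 re-expression (Smarcb1-RE) were compared. Smarcb1-RE cells carried a lentiviral Smarcb1 cDNA (pInd20) that doxycycline (Dox, 0.5 µg/µl for 72 h) switches on, and had been selected with G418, after which stable clones were established. All groups shared the medium, with 10% FBS. According to the labels, SAHA cells had a vehicle as their counterpart and Smarcb1-RE cells a plasmid lacking Smarcb1, and they leave the counterpart used for the 3 control libraries unnamed. The study's text calls the RNA-seq controls untreated. Transduction, clone selection and Dox therefore cannot be told apart from Smarcb1 itself where Smarcb1-RE is set against control. The same holds where Smarcb1-RE is set against SAHA, and there the drug differs as well. At the SAHA concentration used for these cultures, the study reports strong apoptosis, with a large majority of cells dead. Whether the RNA of the SAHA libraries came from dying or surviving cells was not tested.

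Progression through G1 depends on D cyclins, which bind and activate Cdk4 and Cdk6. These kinases phosphorylate Rb1, which then releases E2F transcription factors and allows genes of DNA replication to be transcribed. INK4 proteins bind Cdk4 and Cdk6 directly, whereas CIP/KIP proteins bind complexes of cyclins with their kinases, including those with Cdk2. In T cells, Cdkn1b (p27Kip1) is a well known brake that is removed on activation, and Ccnd2 and Ccnd3 are the D cyclins typical of lymphocytes. Inhibitors of histone deacetylases are known to raise Cdkn1a in many cell types, and the INK4 locus is a known target of SWI/SNF and Polycomb.

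The labels were first checked with Smarcb1, whose rounded counts were 2, 5 and 8 in control, 7, 13 and 3 in SAHA, beside 151, 147 and 142 in Smarcb1-RE. It was called higher in Smarcb1-RE than in control, with a log2 fold change of 4.89 (SE 0.36, edgeR's quasi-likelihood test, adjusted p = 6.2e-08). Library totals ranged from 20900424 to 24941408, so that 3 counts, taken as the detection floor, stood for 0.123 to 0.133 CPM (read counts scaled to a common library size), for counting error only. Control replicate 1 stood apart from its group, with a chi-square per gene of 13.4 and 15.0 against the other controls, while all other replicate pairs lay between 2.08 and 4.69. Without it, 8 members were called higher and 1 lower after SAHA, and 6 higher and 3 lower after re-expression, the difference from the full set being Cdkn2b. Of 10 T cell markers, 7 in control, 8 in SAHA and 7 in Smarcb1-RE were above the floor, with summed CPM from 2236 to 2671. Among the defining markers, Cd2 and Cd5 were at or under the floor in every group, and Thy1 in control and Smarcb1-RE. Markers of other cells were low apart from Pecam1, which T cells can also express and which was highest in control (146 to 154 CPM, against 106 to 121 in SAHA and 129 to 130.5 in Smarcb1-RE). The summed B cell markers were 1.06 to 1.27 CPM in control, 1.46 to 2.16 in SAHA and 7.80 to 8.36 in Smarcb1-RE, led by Pax5 in the last group (3.79 to 4.07 CPM). Summed myeloid markers were 2.11 to 2.67, 5.93 to 7.49 and 1.90 to 2.03 CPM, led by Cd68 in each group, and erythroid markers summed to at most 1.37 CPM. The part of these markers in the results was not tested. In bulk RNA, fewer cells with a transcript and less of it per cell cannot be told apart.

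Both treatments shifted most of these G1 genes, but not in the same pattern. After SAHA, 8 of 10 genes were called higher than control, Cdkn2c was called lower and Ccnd2 was not called, with a median log2 fold change of 0.66. Calls were frequent in the transcriptome as a whole: 66.9% of all tested genes were called in this comparison, 32.6% higher and 34.3% lower, around a median of 0.00. After Smarcb1 re-expression, 7 genes were called higher and 3 lower (Cdkn2a, Ccnd2 and Ccnd3), with a median of 0.67, against 77.8% of all genes called, 39.2% higher and 38.6% lower, around a median of 0.01. The median absolute log2 fold change over all genes was 0.37 for SAHA and 0.53 for Smarcb1-RE. The libraries of the compared groups did not overlap for 9 members after SAHA, where 68.7% of all genes did not, and for all 10 members after re-expression, where 79.5% did not. Between Smarcb1-RE and SAHA, 3 members were called higher, 5 lower and 2 not called, against 74.6% of all genes called, 37.8% higher and 36.8% lower. In this last comparison 8 members and 80.0% of all genes did not overlap. Scaled by library totals alone, it gave 4 members higher and 4 lower, and the share of higher genes among all calls went from 50.6% to 62.1%, as it went from 50.4% to 61.0% for Smarcb1-RE against control. Both comparisons with control used the same 3 control libraries, so their values stand side by side and are not independent of each other.

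**Figure D1:**
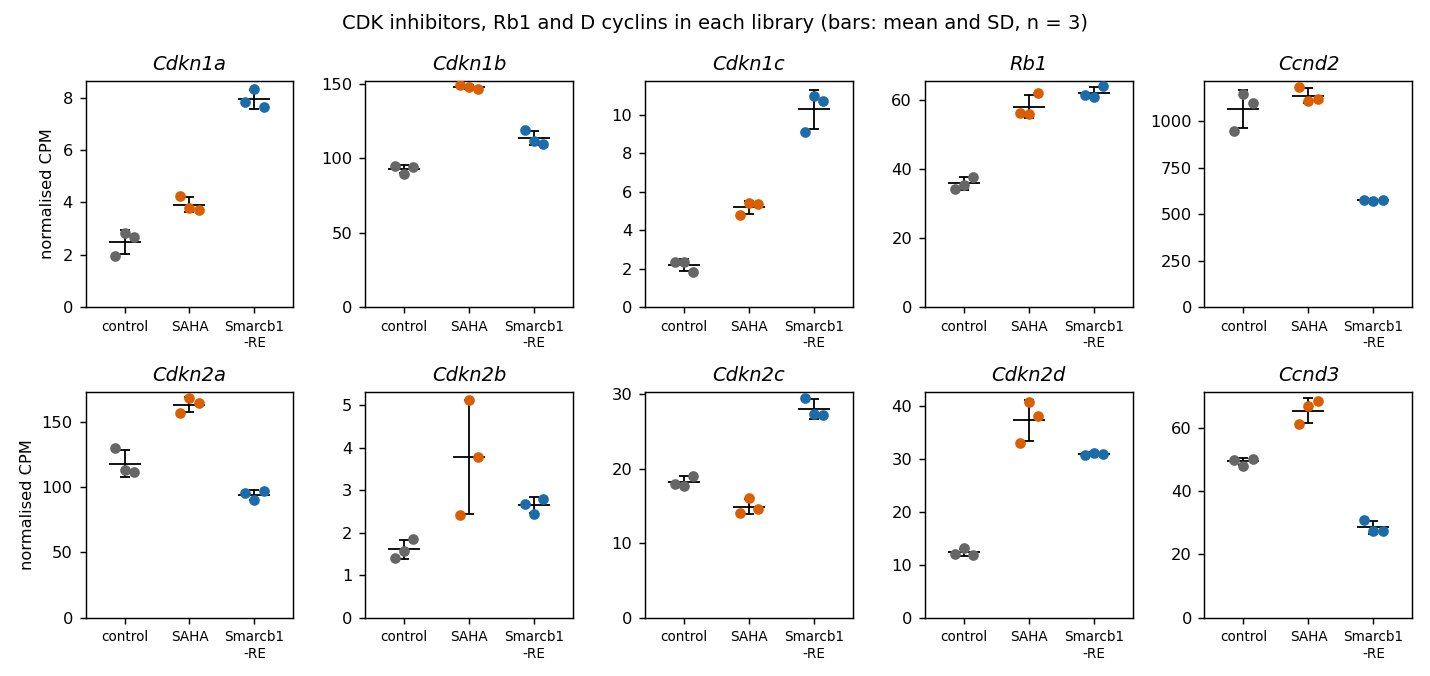
Normalised CPM (y axis, each panel from 0) of the 10 genes in each library of the control, SAHA and Smarcb1-RE groups; horizontal lines are means and bars SD (n = 3). The Smarcb1-RE libraries lie between 571 and 575 CPM for Ccnd2 and above 7.6 CPM for Cdkn1a, apart from both other groups, while the SAHA libraries of Cdkn2b are spread from 2.42 to 5.12 CPM.

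The CIP/KIP inhibitors were all higher than control after either treatment, and Cdkn1a and Cdkn1c rose further in Smarcb1-RE than in SAHA. Cdkn1a (p21Cip1, ENSMUSG00000023067, chr17:29090976-29100727, plus strand, GRCm38) is the inhibitor best known as a target of p53. Its normalised CPM was 1.96, 2.83 and 2.67 in control, 4.24, 3.80 and 3.70 in SAHA, beside 7.85, 8.32 and 7.63 in Smarcb1-RE. The groups formed 3 steps without overlap, on 46 to 67 reads per library in control and 177 to 188 in Smarcb1-RE. The log2 fold change against control was 0.65 (SE 0.15, edgeR adjusted p = 0.00184) for SAHA and 1.67 (SE 0.14, edgeR adjusted p = 2.2e-07) for Smarcb1-RE, a 3.18-fold higher level. Smarcb1-RE also exceeded SAHA, by 1.02 (SE 0.13, edgeR adjusted p = 1.67e-05).

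RefSeq (GRCm38.p6) lists more than 1 start for Cdkn1a, and the bases before these starts are shown because the gene moved in both treatments. The capitals mark a pair of CATG blocks 6 bases apart in the upstream window, chr17:29090729-29090975, and GC boxes (GGGCGG on either strand) in the downstream window, chr17:29093519-29093768, both on the plus strand.
Cdkn1a upstream start: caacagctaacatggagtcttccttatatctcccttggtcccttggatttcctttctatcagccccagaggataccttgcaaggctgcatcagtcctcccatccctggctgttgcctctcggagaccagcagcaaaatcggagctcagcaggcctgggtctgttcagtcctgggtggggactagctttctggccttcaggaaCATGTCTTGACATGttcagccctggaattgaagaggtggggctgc
Cdkn1a downstream start: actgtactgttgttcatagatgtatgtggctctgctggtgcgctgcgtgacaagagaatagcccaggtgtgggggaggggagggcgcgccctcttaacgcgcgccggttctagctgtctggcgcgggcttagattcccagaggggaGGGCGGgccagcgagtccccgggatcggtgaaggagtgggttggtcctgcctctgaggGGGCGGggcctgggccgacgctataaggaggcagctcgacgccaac
Windows of 250 bases before a start, searched on both strands, held the CATG pair in 0.49% and a GC box in 32.749% of 32841 cases genome-wide. The pair was picked after the sequence was seen. The downstream window held 19 CpG dinucleotides and was 64.8% G or C, against 2 CpG and 54.0% upstream, and a median of 6 and 52.4% over all windows. The level of Trp53, the gene of p53, was lower than control in SAHA by 0.56 (SE 0.05, edgeR adjusted p = 1.28e-06) and in Smarcb1-RE by 0.97 (SE 0.05, edgeR adjusted p = 4.32e-09) on the log2 scale.

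Cdkn1b (ENSMUSG00000003031, chr6:134920401-134925513, plus strand) was the most abundant CIP/KIP transcript per length in every group. Its CPM was 94.4, 89.5 and 94.3 in control, 149, 148 and 147 in SAHA, beside 119, 112 and 109.7 in Smarcb1-RE. The replicates were tight, SAHA was highest and Smarcb1-RE lay between the other two groups. Against control, the log2 fold change was 0.67 (SE 0.04, edgeR adjusted p = 3.63e-08) after SAHA and 0.29 (SE 0.04, edgeR adjusted p = 3.67e-05) after re-expression, and Smarcb1-RE fell below SAHA by 0.38 (SE 0.04, edgeR adjusted p = 3.09e-06). Scaled by library totals alone, the change after re-expression was 0.45 (edgeR adjusted p = 6.97e-07), since that scaling moved the median of all genes in Smarcb1-RE against control to 0.17, and it moved the difference from SAHA to -0.22 (edgeR adjusted p = 0.000354). Cdkn1b is controlled to a large extent by protein turnover through Skp2 (described with the ubiquitin ligases), which RNA counts do not show. The window before its start is shown as that of the most abundant member of its family.
Cdkn1b start, chr6:134920151-134920400, plus strand: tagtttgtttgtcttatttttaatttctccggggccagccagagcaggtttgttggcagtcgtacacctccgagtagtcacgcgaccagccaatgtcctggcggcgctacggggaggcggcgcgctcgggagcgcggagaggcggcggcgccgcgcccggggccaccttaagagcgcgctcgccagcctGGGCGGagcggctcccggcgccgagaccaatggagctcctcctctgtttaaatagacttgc
It held 28 CpG dinucleotides and 1 GC box, in capitals.

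Cdkn1c (p57Kip2, ENSMUSG00000037664, chr7:143458339-143461050, minus strand), an imprinted inhibitor linked to differentiation and quiescence, had the largest increase of any member after re-expression. Its CPM was 2.34, 2.37 and 1.81 in control, 4.81, 5.39 and 5.34 in SAHA, beside 9.13, 10.97 and 10.7 in Smarcb1-RE. The 3 groups did not overlap, on 44 to 56 reads per library in control, 111 to 124 in SAHA and 214 to 249 in Smarcb1-RE. Expressed as log2 fold change, the difference from control was 1.25 (SE 0.14, edgeR adjusted p = 5.04e-06) after SAHA and 2.24 (SE 0.13, edgeR adjusted p = 7.41e-09) after re-expression, or 2.38-fold and 4.73-fold. The difference of 0.99 between Smarcb1-RE and SAHA also passed the test (SE 0.12, edgeR adjusted p = 7.03e-06).

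Among the INK4 inhibitors, Cdkn2d and Cdkn2b were higher than control in both treatments, whereas Cdkn2a and Cdkn2c moved in opposite directions in the 2 treatments. Cdkn2d (p19Ink4d, ENSMUSG00000096472, chr9:21288410-21291407, minus strand) had the largest increase of any member after SAHA. Its CPM was 12.1, 13.1 and 11.8 in control, 33.0, 40.7 and 38.1 in SAHA, beside 30.7, 31.2 and 31.0 in Smarcb1-RE. Every treated library was far above every control library, and the Smarcb1-RE libraries lay just below those of SAHA. On the log2 scale, the change was 1.59 (SE 0.08, edgeR adjusted p = 5.94e-09) after SAHA and 1.33 (SE 0.08, edgeR adjusted p = 7.64e-09) after re-expression. Smarcb1-RE was lower than SAHA by 0.27 (SE 0.07, edgeR adjusted p = 0.004), a call that was lost with scaling by library totals alone (-0.11, edgeR adjusted p = 0.178).

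Cdkn2a (ENSMUSG00000044303, chr4:89274471-89294653, minus strand) encodes 2 unrelated proteins from separate starts, the Cdk inhibitor p16Ink4a and the p53 regulator p19Arf. The table gives a single count for the gene, so the transcripts cannot be told apart. Its CPM was 129.8, 113 and 111 in control, 157, 168 and 164.5 in SAHA, beside 95.2, 90.03 and 97.1 in Smarcb1-RE. SAHA libraries were all above and Smarcb1-RE libraries all below control. Cdkn2a had a log2 fold change of 0.47 (SE 0.06, edgeR adjusted p = 1.27e-05) after SAHA and -0.33 (SE 0.06, edgeR adjusted p = 0.000221) after re-expression, and the difference between the treated groups was -0.80 (SE 0.06, edgeR adjusted p = 6.54e-08). With library totals alone, the fall after re-expression was smaller (-0.17, edgeR adjusted p = 0.0142).

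The windows before the p16Ink4a and the p19Arf start are shown because their base composition differs within the same gene. Capitals mark a GC box, searched as above.
Cdkn2a p16Ink4a start, chr4:89282193-89282442, minus strand: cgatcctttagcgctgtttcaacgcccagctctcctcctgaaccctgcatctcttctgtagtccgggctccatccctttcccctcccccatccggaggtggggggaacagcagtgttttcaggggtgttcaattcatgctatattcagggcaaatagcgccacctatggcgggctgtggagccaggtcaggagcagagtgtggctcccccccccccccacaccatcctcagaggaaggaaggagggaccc
Cdkn2a p19Arf start, chr4:89294654-89294869, minus strand: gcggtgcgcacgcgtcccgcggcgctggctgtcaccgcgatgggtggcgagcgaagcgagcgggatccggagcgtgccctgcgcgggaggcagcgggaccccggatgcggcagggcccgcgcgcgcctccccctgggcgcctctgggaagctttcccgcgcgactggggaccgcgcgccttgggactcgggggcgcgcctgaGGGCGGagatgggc
The p16Ink4a window was 60.0% G or C with 7 CpG and no GC box, while the p19Arf window was 78.4% G or C with 40 CpG and 2 GC boxes, 1 of them in its annotated exon bases, which are not printed. Each window held 1 match to TTTNNCGC, an E2F-like motif that 4.281% of all windows held. Over the 7 members in the promoter table used here, 7 of 11 windows held a GC box, beside 32.749% of all windows genome-wide. This count used all 250 bases of a window, exon bases included. The Cdkn2c window with a GC box lay wholly in annotated exon bases. In the Cdkn2d window 198 bases were exonic, and its GC boxes lay in them. Promoters of Cdkn1c, Rb1 and Ccnd2 were not analysed here.

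Cdkn2b (p15Ink4b, ENSMUSG00000073802, chr4:89306299-89311039, minus strand) lies next to Cdkn2a and is known to respond to TGF-beta. Its CPM was 1.40, 1.56 and 1.85 in control, 2.42, 5.12 and 3.79 in SAHA, beside 2.69, 2.43 and 2.80 in Smarcb1-RE, on 33 to 116 reads. The SAHA libraries were widely scattered (3.78 ± 1.35 CPM, SD, n = 3) and overlapped the Smarcb1-RE libraries, while both treated groups lay above control. In the fit, the log2 fold change was 1.23 (SE 0.25, edgeR adjusted p = 0.000751) after SAHA and 0.72 (SE 0.26, edgeR adjusted p = 0.0214) after re-expression. The call after re-expression was lost without Smarcb1-RE replicate 1 (0.69, edgeR adjusted p = 0.0543) or replicate 3 (0.67, edgeR adjusted p = 0.0605) and without control replicate 1 (0.62, edgeR adjusted p = 0.0644) or replicate 2 (0.68, edgeR adjusted p = 0.0573). Smarcb1-RE and SAHA were not called different (-0.51, SE 0.24, interval -1.03 to -0.00068, edgeR adjusted p = 0.0653), which turned into a call without SAHA replicate 1 (-0.77, edgeR adjusted p = 0.00413) and shrank without SAHA replicate 2 (-0.25, edgeR adjusted p = 0.339).

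Cdkn2c (p18Ink4c, ENSMUSG00000028551, chr4:109660876-109667189, minus strand) is an INK4 inhibitor with known functions in lymphocytes. Its CPM was 17.98, 17.7 and 19.1 in control, 14.1, 16.0 and 14.6 in SAHA, beside 29.5, 27.3 and 27.2 in Smarcb1-RE. It was the inhibitor that was lower than control in SAHA, and the 3 groups did not overlap. The log2 fold change was -0.29 (SE 0.07, edgeR adjusted p = 0.00219) after SAHA and 0.62 (SE 0.06, edgeR adjusted p = 1.51e-06) after re-expression, so that Smarcb1-RE exceeded SAHA by 0.91 (SE 0.07, edgeR adjusted p = 5.54e-08).

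Cdkn2a, Cdkn2b and Cdkn2c all lie on chromosome 4, and this chromosome as a whole was shifted in Smarcb1-RE cells. The median log2 fold change of 674 chromosome 4 genes was 0.29 after re-expression, against -0.10 for 9661 genes of the other autosomes, a shift of 0.39. The other autosomes were pooled, so how this shift compares with that of other single chromosomes is not shown. After SAHA the medians were -0.09 and -0.06, a shift of -0.03. Measured relative to chromosome 4 genes, the change after re-expression was -0.63 for Cdkn2a (edgeR adjusted p = 3.65e-07), 0.31 for Cdkn2c (edgeR adjusted p = 0.000723) and 0.41 for Cdkn2b (edgeR adjusted p = 0.159), so that the call of Cdkn2b was lost. The part of the chromosome in the values of these genes was not tested further. The nearest tested protein-coding neighbour of Cdkn2a on the other side from Cdkn2b was Mtap, at 93.4 kb, with -0.50 (SE 0.04, edgeR adjusted p = 2.44e-07) after SAHA and -0.84 (SE 0.04, edgeR adjusted p = 1.05e-09) after re-expression. Elavl2, the nearest beyond Cdkn2b at 1940 kb, rose by 0.44 (SE 0.12) and 0.99 (SE 0.12). Near Cdkn2c, Faf1 changed by -0.14 (SE 0.04) and 0.40 (SE 0.04), and Rnf11 by 0.04 (SE 0.04) and 0.23 (SE 0.04), of which the value of Rnf11 after SAHA did not pass the test (edgeR adjusted p = 0.441).

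**Figure D2:**
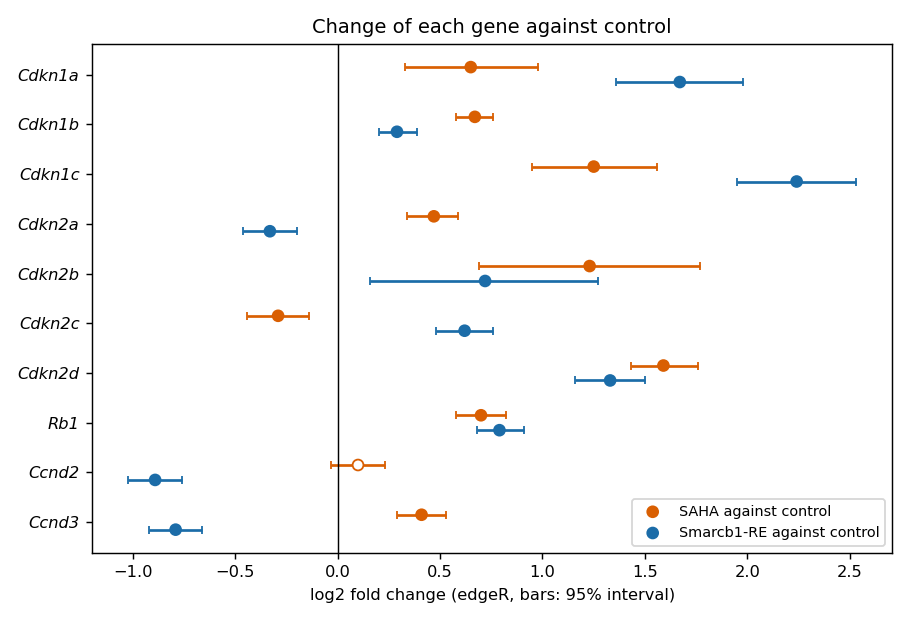
Log2 fold change against control (x axis) of each of the 10 genes after SAHA (orange) and in Smarcb1-RE (blue), with 95% intervals from edgeR; the open symbol was not called. Cdkn2a and Ccnd3 lie to the right of 0 after SAHA and to the left in Smarcb1-RE, Cdkn2c the reverse, and Ccnd2 is near 0 after SAHA and at -0.89 in Smarcb1-RE.

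Rb1 (ENSMUSG00000022105, chr14:73183673-73325822, minus strand), the pocket protein that holds E2F in check, was higher than control in both treatments. Its CPM was 34.3, 35.5 and 37.9 in control, 56.2, 56.2 and 62.2 in SAHA, beside 61.5, 61.1 and 64.1 in Smarcb1-RE. Both treated groups were clear of control and overlapped each other. For Rb1, the log2 fold change was 0.70 (SE 0.05, edgeR adjusted p = 2.35e-07) after SAHA and 0.79 (SE 0.05, edgeR adjusted p = 2.85e-08) after re-expression. The difference between the treated groups was 0.10 with a 95% interval of -0.02 to 0.21 (SE 0.05, edgeR adjusted p = 0.111). It became a call with library totals alone (0.26, edgeR adjusted p = 0.000867) and without SAHA replicate 3 (0.14, edgeR adjusted p = 0.0343). Rb1 shares 488 exon bases with Rcbtb2 on the opposite strand and 408 with Lpar6, and whether reads were assigned by strand is not given in the sources used here. Rcbtb2 fell by 2.48 (SE 0.14, edgeR adjusted p = 1.52e-08) after SAHA, in the direction opposite to Rb1, and was at -0.05 (SE 0.11, edgeR adjusted p = 0.702) after re-expression.

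Both D cyclins fell in Smarcb1-RE cells, and neither was called lower after SAHA. Ccnd2 (ENSMUSG00000000184, chr6:127125162-127152193, minus strand) had a CPM of 948, 1145 and 1097 in control, 1185, 1110.3 and 1117 in SAHA, beside 574, 571 and 575 in Smarcb1-RE. Control and SAHA libraries overlapped, control replicate 1 being the lowest of these 6, whereas the Smarcb1-RE libraries were nearly identical and far below. The log2 fold change was 0.10 (SE 0.06, 95% interval -0.03 to 0.23, edgeR adjusted p = 0.171) after SAHA and -0.89 (SE 0.06, edgeR adjusted p = 2.6e-08) after re-expression, and -0.99 (SE 0.06, edgeR adjusted p = 1.14e-08) between Smarcb1-RE and SAHA. Without control replicate 1, the values against control were 0.02 (edgeR adjusted p = 0.649) for SAHA and -0.97 (edgeR adjusted p = 7.48e-11) for Smarcb1-RE.

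Ccnd3 (ENSMUSG00000034165, chr17:47505051-47599691, plus strand) is the D cyclin required for the expansion of thymocytes. Its CPM was 49.8, 48.1 and 50.2 in control, 61.2, 66.7 and 68.4 in SAHA, beside 30.8, 27.5 and 27.3 in Smarcb1-RE. It was higher than control in SAHA and lower in Smarcb1-RE, with no overlap between any of the groups. The log2 fold change was 0.41 (SE 0.06, edgeR adjusted p = 3.09e-05) after SAHA and -0.79 (SE 0.06, edgeR adjusted p = 7.28e-08) after re-expression. The difference of -1.20 between Smarcb1-RE and SAHA was the largest of any member in that comparison (SE 0.06, edgeR adjusted p = 1.61e-09). Ccnd3 shares 361 exon bases with Bysl on the opposite strand, which was at -0.40 (SE 0.04, edgeR adjusted p = 1.6e-06) after SAHA and -1.27 (SE 0.04, edgeR adjusted p = 5.1e-11) after re-expression.

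The proportion of the D cyclins to each other was described as well. Ccnd2 made up 95.5% ± 0.487 (SD, n = 3) of the summed CPM of Ccnd2 and Ccnd3 in control, 94.5% ± 0.472 in SAHA and 95.3% ± 0.309 in Smarcb1-RE. The control libraries (95.01% to 95.97%) overlapped those of SAHA (94.2% to 95.1%) and of Smarcb1-RE (94.9% to 95.5%). This overlap came from control replicate 1 (95.01%), which stood apart from its group. Control replicates 2 and 3 (95.97% and 95.63%) lay above every treated library. With 3 libraries against 3, an exact permutation test cannot give a two-sided p under 0.1, so none was run. Ccnd1, the D cyclin typical of non-lymphoid cells, was scarce, with 0.595, 0.422 and 0.658 CPM in control, 1.13, 1.46 and 1.25 in SAHA, beside 1.62, 2.83 and 1.94 in Smarcb1-RE. It was higher after SAHA by 1.18 (SE 0.30, edgeR adjusted p = 0.0035) and after re-expression by 1.92 (SE 0.28, edgeR adjusted p = 4.24e-05), yet amounted to 0.70% of the D cyclin transcripts per kb in Smarcb1-RE.

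On the scale of CPM per kb of annotated exon, which allows genes to be compared, Ccnd2 (113 ± 10.9, SD, n = 3) and Cdkn2a (101 ± 8.68) led in control and overlapped. They were followed by Cdkn1b (20.4 ± 0.617), Cdkn2d (7.84 ± 0.431), Cdkn2c (6.79 ± 0.276), Rb1 (5.97 ± 0.304) and Ccnd3 (5.63 ± 0.128), of which Rb1 and Ccnd3 overlapped. At the bottom were Cdkn2b (1.15 ± 0.163) and Cdkn1c (1.06 ± 0.154), which overlapped, and Cdkn1a (0.700 ± 0.131). The order depended on the length used, since Ccnd3 had rank 3 in control with the length of its principal transcript, 2113 bases, in place of its 8775 exon bases. Cdkn2a was ahead of Ccnd2 without overlap in both treated groups, with 139 ± 4.98 against 121 ± 4.37 CPM per kb in SAHA and 80.3 ± 3.12 against 60.9 ± 0.244 in Smarcb1-RE. Per kb of principal transcript, Cdkn2a and Ccnd2 overlapped in SAHA instead (182 ± 6.52 and 180 ± 6.49), did not overlap in control (132 ± 11.4 and 168 ± 16.2), and kept Cdkn2a ahead in Smarcb1-RE (105 ± 4.08 and 90.6 ± 0.363). Cdkn1c moved from rank 9 in control to rank 7 in Smarcb1-RE, and Cdkn2b from rank 8 to rank 10, although its own level was higher there (1.90 CPM per kb). Per kb of principal transcript, Cdkn1c moved from rank 10 to rank 8 and Cdkn2b from rank 9 to rank 10.

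The inhibitor families were also summed, on the same scale. The CIP/KIP sum was 22.1 ± 0.453 CPM per kb in control, 36.1 ± 0.193 in SAHA and 32.2 ± 0.688 in Smarcb1-RE (SD, n = 3). Cdkn1b accounted for 92.0%, 89.9% and 77.4% of it, and Cdkn1c for 4.82%, 7.03% and 15.7%. The INK4 sum was 117 ± 8.35 in control, 171 ± 8.79 in SAHA and 112 ± 3.28 in Smarcb1-RE, where the libraries overlapped those of control. Within it, Cdkn2a made up 86.4%, 81.4% and 71.5%, and Cdkn2d 6.75%, 13.8% and 17.5%. These shares are descriptions of the means and were not tested. The single count of Cdkn2a pools p16Ink4a with p19Arf, which is not a Cdk inhibitor. The INK4 sum is therefore not one of Cdk inhibitor transcripts alone.

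**Figure D3:**
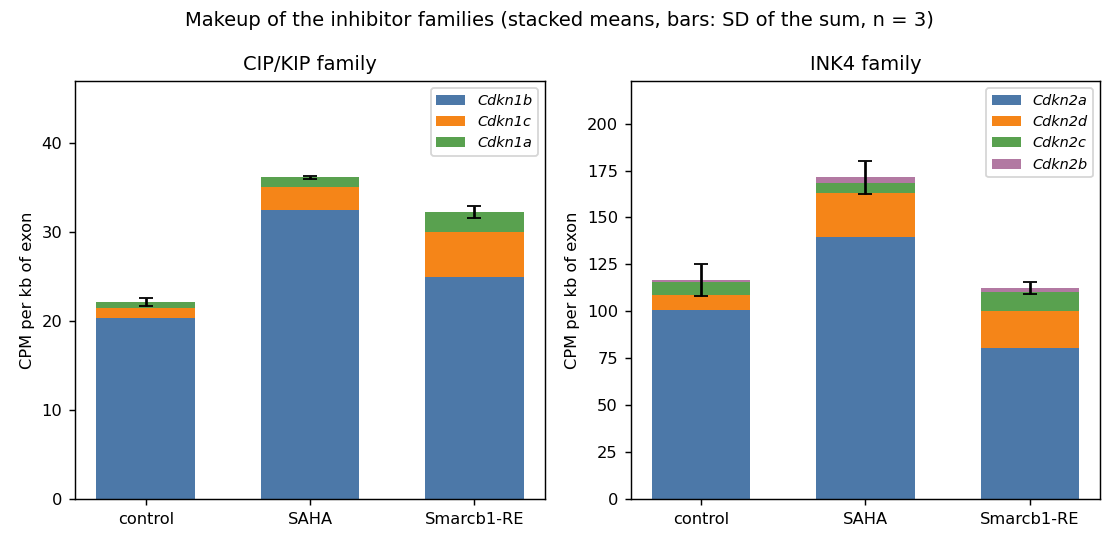
Stacked mean CPM per kb of exon (y axis, from 0) of the CIP/KIP genes (left) and the INK4 genes (right) in control, SAHA and Smarcb1-RE, with bars for the SD of the sum (n = 3). Cdkn1b and Cdkn2a form most of each bar, and the INK4 bars of control and Smarcb1-RE are of similar height (117 and 112). The Cdkn2a part pools p16Ink4a and p19Arf.

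The genes around these regulators were described with 7 lists, likewise chosen with earlier results of these data known. The lists held 93 genes, of which 92 were tested (Tbx3 had at most 3 reads in a library). Of these, 17 were called higher and 62 lower after SAHA, and 17 higher and 63 lower after re-expression, beside the 32.6% and 34.3% of all genes for SAHA and the 39.2% and 38.6% for Smarcb1-RE given above. Scaled by library totals alone, the list genes were 24 higher and 54 lower after re-expression. Among 11 G1 cyclins and kinases, 1 was higher and 6 lower after SAHA (median -0.15), and 3 were higher and 6 lower after re-expression (median -0.14). Cdk4, the partner of D cyclins, fell in both treatments, by 0.29 (SE 0.05) and 0.34 (SE 0.05). Cdk6 was at 0.00 (SE 0.06, edgeR adjusted p = 0.961) after SAHA and rose by 0.37 (SE 0.06, edgeR adjusted p = 8.06e-05) in Smarcb1-RE, where Cdk2 rose by 0.24 (SE 0.04) as well. Ccne1, which activates Cdk2, fell by 0.66 (SE 0.05) after re-expression and was at -0.07 (SE 0.05, edgeR adjusted p = 0.26) after SAHA, and the difference between the treated groups passed the test (-0.59, SE 0.05, edgeR adjusted p = 4.78e-07). Ccne2 fell by 0.50 (SE 0.07) after SAHA and was at -0.14 (SE 0.07, edgeR adjusted p = 0.0745) after re-expression, and here Smarcb1-RE exceeded SAHA by 0.36 (SE 0.07, edgeR adjusted p = 0.000452). The largest falls on this list were those of Ccna2 after SAHA (-0.53, SE 0.04) and of the phosphatase gene Cdc25a after re-expression (-1.11, SE 0.04).

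Of 12 genes for pocket proteins, E2F and their DP partners, 2 were higher and 10 lower after SAHA (median -0.48), and 3 higher, 6 lower and 3 not called after re-expression (median -0.15). Rbl2, the pocket protein of quiescent cells, rose by 0.18 (SE 0.04) and 0.56 (SE 0.04), whereas Rbl1 fell by 0.46 (SE 0.04) after SAHA and was at -0.06 (SE 0.04, edgeR adjusted p = 0.199) in Smarcb1-RE. The activating E2f1 fell by 0.65 (SE 0.05) and 0.48 (SE 0.05), and E2f3 by 0.54 (SE 0.05) and 0.87 (SE 0.06). E2f2 was at -0.13 (SE 0.04) after SAHA and 0.67 (SE 0.04) after re-expression, both called. After SAHA the 3 activators all fell, and after re-expression they did not move the same way. E2f4, the repressor that works with Rbl2, fell by 0.22 (SE 0.04) and 1.05 (SE 0.04), and E2f6 by 0.86 (SE 0.07) and 0.17 (SE 0.06). The atypical E2f7 and E2f8 fell by 0.91 (SE 0.09) and 0.80 (SE 0.07) after SAHA. In Smarcb1-RE they were at 0.16 (SE 0.09, edgeR adjusted p = 0.103) and -0.21 (SE 0.06, edgeR adjusted p = 0.00841). Tfdp2 was the DP gene that rose, by 0.56 (SE 0.06) and 1.09 (SE 0.06), and E2f5 was at -0.18 (SE 0.07, edgeR adjusted p = 0.0412) and -0.13 (SE 0.07, edgeR adjusted p = 0.12).

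A list of 7 MuvB and DREAM genes held subunits of a complex that silences cell cycle genes with pocket proteins. It also held Mybl2 and Foxm1, which are not part of that silencing complex. Of these 7 genes, 1 was higher and 4 lower after SAHA, and none higher and 5 lower after re-expression. Lin54 rose by 0.84 (SE 0.05) after SAHA, while Lin9 fell by 0.88 (SE 0.05) and 0.39 (SE 0.05) and Mybl2 by 0.59 (SE 0.05) and 0.51 (SE 0.05). A list of 13 genes of ubiquitin ligases was made for the inhibitors and D cyclins, though Fbxw7 on it belongs to a ligase of cyclin E. Of these 13 genes, 9 were lower in each treatment, with 1 (Fbxw7) higher after SAHA and 2 higher after re-expression (medians -0.19 and -0.37). Skp2, which marks p27Kip1 for degradation, fell by 0.76 (SE 0.06) and 0.78 (SE 0.06), and its cofactor Cks1b fell by 0.44 (SE 0.06) and 1.29 (SE 0.06). Fbxo4, a receptor described for D cyclins, was at -0.42 (SE 0.08) after SAHA and 1.00 (SE 0.08) after re-expression, and Fbxw7, which targets cyclin E, was at 0.37 (SE 0.06) and -0.81 (SE 0.06), all of them calls.

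Among 19 tested transcriptional regulators of the members, 12 were higher and 4 lower after SAHA, and 9 higher and 8 lower after re-expression (medians 0.29 and 0.08). Myc, which represses several inhibitor genes, was higher after SAHA by 0.25 (SE 0.04) and lower after re-expression by 0.56 (SE 0.04), and both were calls. Mdm2, the ligase of p53 and itself a p53 target, was at 0.42 (SE 0.04, edgeR adjusted p = 1.29e-06) and -0.10 (SE 0.04, edgeR adjusted p = 0.0453). Klf4, a known activator of Cdkn1a, rose by 1.24 (SE 0.07) after SAHA and 0.46 (SE 0.07) after re-expression, and Ets2 fell by 0.71 (SE 0.09) and 0.46 (SE 0.08). Cbx7, which encodes a Polycomb protein known to act on the INK4 locus, rose by 0.38 (SE 0.04) and 0.66 (SE 0.04). Id1, at a low level, rose by 0.97 (SE 0.23, edgeR adjusted p = 0.00252) after SAHA and fell by 2.25 (SE 0.31, edgeR adjusted p = 2.03e-05) after re-expression, from 1.19 to 1.56 CPM in control to 0.177 to 0.426 CPM.

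The S-phase targets of E2F and, as a separate list, mitotic genes were mostly lower in both treatments. Of 18 S-phase targets, 17 were lower after SAHA (median -0.52) and all 18 after re-expression (median -0.88), and none was higher. Of 12 mitotic genes, 12 were lower after SAHA (median -0.52) and 11 after re-expression (median -1.13). Mki67 was the exception after re-expression, at -0.03 (SE 0.06, edgeR adjusted p = 0.65). The largest falls were those of Tk1, a thymidine kinase, after SAHA (-1.26, SE 0.07), of the replication factor Mcm5 after re-expression (-1.36, SE 0.04), of the anaphase activator Cdc20 after SAHA (-0.85, SE 0.05) and of the mitotic kinase gene Plk1 after re-expression (-1.76, SE 0.04). Between Smarcb1-RE and SAHA, 13 of the S-phase targets were lower and 3 higher, and 11 mitotic genes were lower and 1 higher, beside the 36.8% of all genes that were called lower. For Smarcb1-RE cells, the study reports reduced growth, with viability and cell cycle not affected. For SAHA, the study reports strong apoptosis at the concentration used here, and no significant cell cycle effects at lower concentrations. How the RNA values relate to the phase of the cells, or to cell death after SAHA, was not tested.

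**Figure D4:**
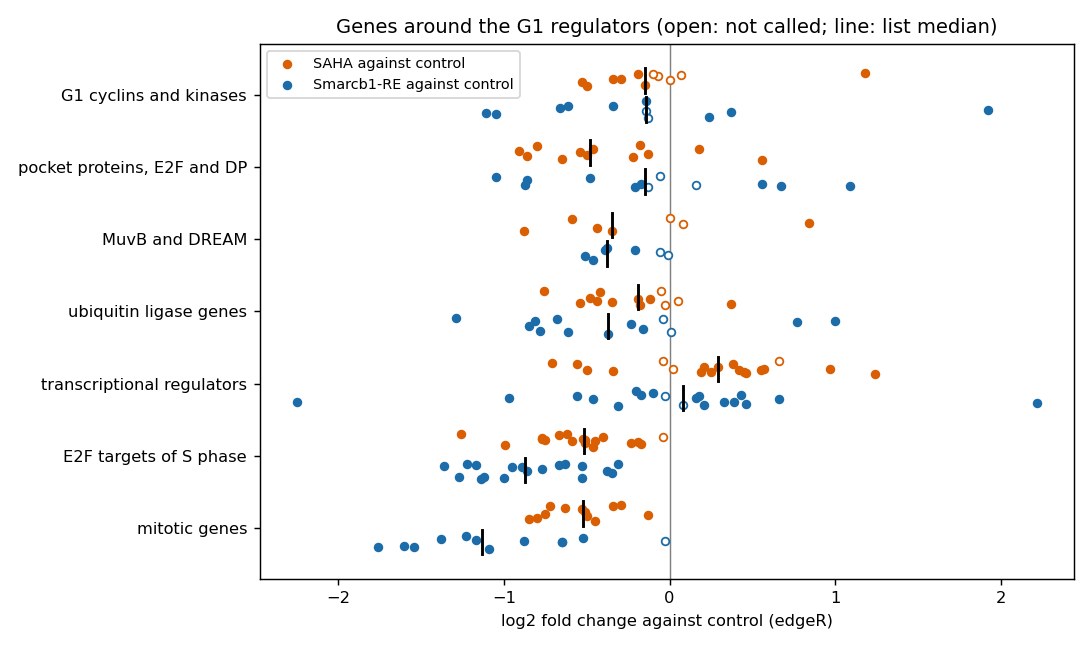
Log2 fold change against control (x axis) of each tested gene of the 7 lists (rows) after SAHA (orange) and in Smarcb1-RE (blue); open symbols were not called and vertical lines mark list medians. S-phase and mitotic genes lie almost entirely to the left of 0, with medians of -0.52 for both lists after SAHA and -0.88 and -1.13 in Smarcb1-RE.

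Genes whose pattern resembled that of a member were sought by Pearson's correlation of log2 CPM over the 9 libraries among 10588 protein-coding genes, as a description only, since the 3 groups dominate such a value. Cdkn2d, the member with the largest change after SAHA, had Ift81 (r = 0.997) and Gm2a (r = 0.994) among the 3 genes most like it, and 350 genes had r above 0.95. Cdkn1c, the member with the largest change after re-expression, was most like Cbx7 (r = 0.997), Olfr46 (r = 0.996) and Erp44 (r = 0.994), with 429 genes above 0.95. The mean of Cbx7 was 69.9 CPM in control, 90.9 in SAHA and 111 in Smarcb1-RE, in the same order of groups as Cdkn1c. Olfr46, named for its olfactory receptor family, went from 2.76 to 6.83 and 14.5 CPM.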

How the data were processed

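RNA-seq libraries of 3 control, 3 SAHA-treated and 3 Smarcb1-RE replicates of T15 cells, described by the study as biological replicates, came from a directional kit and single-end sequencing. The submitters' processing notes name Salmon 0.14.1, DESeq2 1.22.2, FastQC 0.11.8, MultiQC 1.7 and GRCm38, without roles. The authors deposited estimated counts per Ensembl gene, neither normalised nor pooled, and 52.351% of the nonzero values had a fractional part. The annotation release and any use of strand in counting are not given in the sources used here. Of 35288 identifiers, 99.464% were found in GENCODE M21 (GRCm38), which gave names, coordinates and exon lengths, and these held 99.946% of the counts. Estimated counts divide reads among transcripts, so genes that overlap others are less certain.

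Counts were rounded and analysed in R 4.3.3 with edgeR 4.0.16 (TMM, filterByExpr with a minimum count of 10, a single quasi-likelihood fit to 9 libraries without covariates, Benjamini-Hochberg adjustment over 13697 genes, adjusted p under 0.05). The common biological coefficient of variation was 5.24%. Standard errors were the absolute log2 fold change over the square root of F. The code was tested on simulated data. CPM used TMM-scaled totals, and chromosome medians used genes whose average log2 CPM reached 1. Promoter windows came from RefSeq (GRCm38.p6), and the transcribed bases after each start were matched to GENCODE transcripts. Printed sequences were cut where GENCODE exons begin, while motifs, CpG and base composition were counted over the full 250 bases.

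The members and gene lists were chosen with earlier results of these data known. Named genes were the members, Smarcb1, a fixed set of cyclins, kinases, pocket proteins, E2F genes and regulators, the most changed called gene per list, comparison and direction whose average log2 CPM reached 0, the nearest tested protein-coding neighbours (not all of them printed), and the 3 genes most like the most changed member of each comparison with control. Of the marker and similar genes, 2 are not reported here. Genes of the lists printed with an SE and without a p passed the test. Alternatives were DESeq2 1.42.0, other scalings, other filters, separate fits, a replicate block, stricter thresholds and leaving out each library.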

Additional observations from a re-analysis of the deposited data

How the results depend on the processing

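Of 513 combinations of a member's log2 fold change and an alternative, 503 kept direction and side of the threshold, 7 lost and 3 gained a call, and none reversed. The losses were 6 for Cdkn2b after re-expression, including an adjusted p under 0.01, and 1 for Cdkn2d between the treated groups. With an absolute log2 fold change of at least 1, members called higher and lower were 3 and 0 after SAHA, 3 and 0 after re-expression and 1 and 1 between Smarcb1-RE and SAHA, and list genes were 2 and 1, 4 and 19, and 3 and 4. Per exon length, the share of Ccnd2 in Smarcb1-RE was 94.9%. Leaving out a library gave a chromosome 4 shift of -0.04 to -0.02 for SAHA. Library totals alone moved the median of all genes to 0.17 in Smarcb1-RE against control and 0.18 in Smarcb1-RE against SAHA. The causes of these changes were not tested beyond what each setting alters. With the replicate number as a block, 8 members were higher and 1 lower after SAHA, 7 and 3 after re-expression and 3 and 5 between the treated groups, as without it. Same-numbered libraries did not deviate together (mean r = -0.02, range -0.128 to 0.037, against 0.01 for other numbers), so the numbers were not taken to pair them. Depth limits Cdkn2b, Cdkn1a and Cdkn1c, with between 33 and 67 reads per control library.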

Other observations

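Around the other members, the nearest tested protein-coding genes did not always move as the members did. Gpr19, the nearer neighbour of Cdkn1b at 21.8 kb, was called higher in both treatments like Cdkn1b (edgeR adjusted p = 0.000896 and 1.95e-07). On the other side, at 56.2 kb, Apold1 was at 0.95 (SE 0.06) after SAHA and -1.06 (SE 0.06) after re-expression, both called. Slc22a18, an imprinted neighbour of Cdkn1c at 12.7 kb, was at -3.12 (SE 0.82, edgeR adjusted p = 0.00453) after SAHA and 0.69 (SE 0.48, edgeR adjusted p = 0.209) after re-expression. Next to Ccnd2, Tigar, a regulator of glycolysis, was at 0.20 (SE 0.04) and -0.93 (SE 0.05), both called. Slc44a2, next to Cdkn2d, rose by 1.18 (SE 0.05) and 0.50 (SE 0.05), while Kri1, at 0.441 kb on the other side, was at 0.20 (SE 0.05) and -0.06 (SE 0.05, edgeR adjusted p = 0.259). Near Cdkn1a, Srsf3 fell by 0.23 (SE 0.06) and 0.58 (SE 0.06), and Cpne5 was at 0.23 (SE 0.23, edgeR adjusted p = 0.385) and 0.97 (SE 0.22, edgeR adjusted p = 0.00119). The adjusted p-values come from the same quasi-likelihood fit as those of the members.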
